A study of Mus musculus with 4 samples.

Results

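Nr4a1, Nr4a2, Nr4a3, Klf2, Klf4, Klf6 and Klf9 were described in single mouse blood progenitors that were present in a gate set for endothelial cells, as 7 of the 27998 genes counted. They were chosen by their measured levels: earlier readings of these same counts had shown higher Klf2 and Nr4a1 in the progenitors of 1 library. Their differences between libraries are therefore a description, with no test. They were found by symbol in the gene tables of all 4 libraries, and all 7 were matched. The cells had been sorted by flow cytometry as lineage-negative, CD31+, VE-cadherin+ and endomucin+, and divided by Sca-1 into a sinusoidal (Sca-1 negative) and a type H (Sca-1 positive) gate. For each gate there was 1 library with the genotype ID1 -/- ID3-/-, here "labelled knockout", and 1 with the genotype ID1 +/+ ID3+/-, here "labelled control". By this genotype the controls carried an Id3 mutation as well, although their titles call them WT. Both genotypes carried CDH5-CreER, a recombinase driven by an endothelial promoter, and the labels give tamoxifen by injection into the peritoneum for 5 days, to delete Id1. The labels name no tissue. The sources used here do not give the number, age or sex of the mice.

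The Nr4a genes encode orphan nuclear receptors that cells switch on within minutes to hours of a signal, in part through cyclic AMP and the factor CREB. In blood stem cells Nr4a1 and Nr4a3 are known as brakes on division. The Kruppel-like factors are zinc-finger proteins that bind GC-rich DNA: Klf2 is known for its induction by blood flow in endothelium and for keeping T cells quiescent, Klf4 for monocyte differentiation, Klf6 as a widely expressed growth regulator and Klf9 as a target of glucocorticoid and thyroid hormone receptors.

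Nr4a1 (ENSMUSG00000023034) lies at chr15:101254269-101274795, Nr4a2 (ENSMUSG00000026826) at chr2:57106830-57124003 and Nr4a3 (ENSMUSG00000028341) at chr4:48045153-48086447 (GRCm38, GENCODE vM21). Klf2 (ENSMUSG00000055148) lies at chr8:72319033-72321656, Klf4 (ENSMUSG00000003032) at chr4:55527143-55532466, Klf6 (ENSMUSG00000000078) at chr13:5861482-5870394 and Klf9 (ENSMUSG00000033863) at chr19:23141226-23168134. The regulatory letters next to the start sites are shown for Nr4a1 and Klf2, which had the highest ratios in progenitors, and for Nr4a2 and Nr4a3, to compare the 3 genes of the Nr4a family. RefSeq promoters (GRCm38.p6) were matched for all 7 genes, and the 250 bases before each start were searched on both strands for the CREB half-site TGACG. Capitals mark its matches (TGACG, or CGTCA where it lies on the other strand). Bases that overlap an exon of the gene in GENCODE vM21 are not printed, which shortens Nr4a3 and Klf2. The 4 stretches lie at chr15:101266596-101266845 (Nr4a1, plus strand, inside an intron of its longest transcripts), chr2:57124004-57124253 (Nr4a2, minus strand, upstream of the gene), chr4:48045055-48045152 (Nr4a3, plus strand, upstream) and chr8:72318812-72319032 (Klf2, plus strand, upstream).
Nr4a1: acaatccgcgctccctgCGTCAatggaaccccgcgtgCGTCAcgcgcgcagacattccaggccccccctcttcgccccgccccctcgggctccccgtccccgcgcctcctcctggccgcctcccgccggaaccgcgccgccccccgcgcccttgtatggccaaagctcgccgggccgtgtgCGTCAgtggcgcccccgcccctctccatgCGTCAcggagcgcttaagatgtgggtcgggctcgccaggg
Nr4a2: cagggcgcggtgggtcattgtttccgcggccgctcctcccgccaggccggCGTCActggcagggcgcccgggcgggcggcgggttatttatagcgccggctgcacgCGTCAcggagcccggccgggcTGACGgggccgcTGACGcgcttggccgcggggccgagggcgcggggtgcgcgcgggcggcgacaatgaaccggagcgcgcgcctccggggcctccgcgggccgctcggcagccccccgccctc
Nr4a3: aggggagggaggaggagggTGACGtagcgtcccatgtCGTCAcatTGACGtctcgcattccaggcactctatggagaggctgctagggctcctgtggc
Klf2: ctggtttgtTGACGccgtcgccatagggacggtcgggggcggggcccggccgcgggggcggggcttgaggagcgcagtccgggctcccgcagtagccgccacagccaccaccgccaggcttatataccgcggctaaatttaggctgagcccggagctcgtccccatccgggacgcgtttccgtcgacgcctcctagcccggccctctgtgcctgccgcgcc
In their 250-base windows Nr4a1, Nr4a2 and Nr4a3 each held 4 half-sites, of which the trimmed Nr4a3 stretch shows 3. Klf2, Klf4 and Klf9 held 1 each, and Klf6 held 0. The background was 27025 RefSeq promoters of the same length, 1 per gene, with a chromosome left out. Of these, 17.9% held at least 1 half-site and 0.152% (41) held at least 4. The members' windows were 59.6% to 80.0% G and C, and among the 7446 promoters with at least 60% G and C the shares were 27.7% and 0.416%. A match to the MEF2 motif, the site through which flow signals reach Klf2, began 118 bases before the Klf2 start. The Nr4a2 window held 1 as well, 167 bases before its start, and 3.01% of the 27025 promoters held at least 1. These matches describe letters, not binding.

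The files held 3641 barcodes (362 to 1877 per library), of which 3567 passed a filter on gene number and mitochondrial share. Totals of unique molecular identifiers (UMIs, the counted molecules) ran from 3234772 to 11065352 per library. Median UMIs per cell were 6142 and 15428 in the sinusoidal libraries labelled control and knockout, and 6420 and 5597 in the type H ones. Pairs of libraries shared 0 to 2 barcodes. Despite the endothelial gates, Cdh5, which encodes VE-cadherin, gave 45 UMIs in 28 of 3567 cells and 0 in 2209 progenitors, and 1 cell held UMIs of at least 2 of 6 endothelial genes. Ptprc, the leukocyte antigen CD45, had a UMI in 867 of the 2209 progenitors. Of the targeted genes, Id3 was not lower in the libraries labelled knockout. It was at 54.7 CPM (UMIs of the gene per 1000000 UMIs of the cells summed) in the sinusoidal library labelled control and 84.8 in that labelled knockout. In the type H gate Id3 was at 33.0 and 84.9 CPM. Id1 was at 26.1 and 26.3 CPM in the sinusoidal and at 4.08 and 2.99 CPM in the type H gate. The recombinase meant to delete Id1 had an endothelial driver, and few of these cells held Cdh5 UMIs, so Id1 levels here do not check the label. The sources used here do not say which parts were deleted, so 3' tags outside them check nothing, and groups are named by label throughout.

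Progenitors were the type H gate cells outside the clusters named as mature blood cells, with an unnamed cycling cluster led by Pf4 kept in: 638 cells, 79.2% of the gate, in the library labelled control and 1571 cells, 84.6%, in that labelled knockout. All 16 progenitor markers listed were measured in them, at a sum of 3312 and 3222 CPM. With 1 library per label, no difference between labels could be tested. Intervals are exact 95% intervals for counting error only, which take each UMI as independent. They say nothing of the spread between cells or between mice. A gene was called higher or lower where its CPM differed at least 1.5-fold and both libraries together held at least 20 UMIs.

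In these progenitors Klf2 and Nr4a1 stood highest in the library labelled knockout relative to the control, Klf4, Klf9 and Nr4a3 lay at about the 1.5-fold line, and Klf6 and Nr4a2 differed little. By the call, 5 of the 7 genes were higher and 0 lower, where 5.41% of the 11716 genes measured were higher and 2.82% lower. The median log2 ratio was 0.63 over the 7 genes and -0.04 over all genes measured. Since the genes were listed from this contrast, the count shows nothing beyond that choice.

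In the control Klf2 stood at 229 CPM (214.9 to 243), and in the library labelled knockout at 443 CPM (429 to 457). The ratio was 1.94 (1.81 to 2.08), which ranked 192 of 11716 genes. Nr4a1 was at 135 CPM (125 to 146) and 235 CPM (225 to 245), a ratio of 1.74 (1.59 to 1.91). For both genes the counting intervals of the 2 libraries lay far apart. Klf9 was at 106 and 163 CPM, with a ratio of 1.54 (1.39 to 1.71). Klf4, a much rarer transcript, was at 24.4 and 37.8 CPM, with a ratio of 1.55 (1.25 to 1.94). The intervals of Klf9 and Klf4 took in the 1.5-fold line, so their call could have gone either way on counting error alone. Nr4a3 rested on 14 and 43 UMIs (3.11 and 4.69 CPM), and its ratio of 1.51 had an interval from 0.811 to 2.99. Nr4a2 was at 175 and 206 CPM, a ratio of 1.18 (1.08 to 1.28). Klf6, the most abundant in the control, was at 277 and 309.8 CPM, a ratio of 1.12 (1.05 to 1.20). Of the abundant members, Nr4a2 and Klf6 thus differed least between labels.

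**Figure D1:**
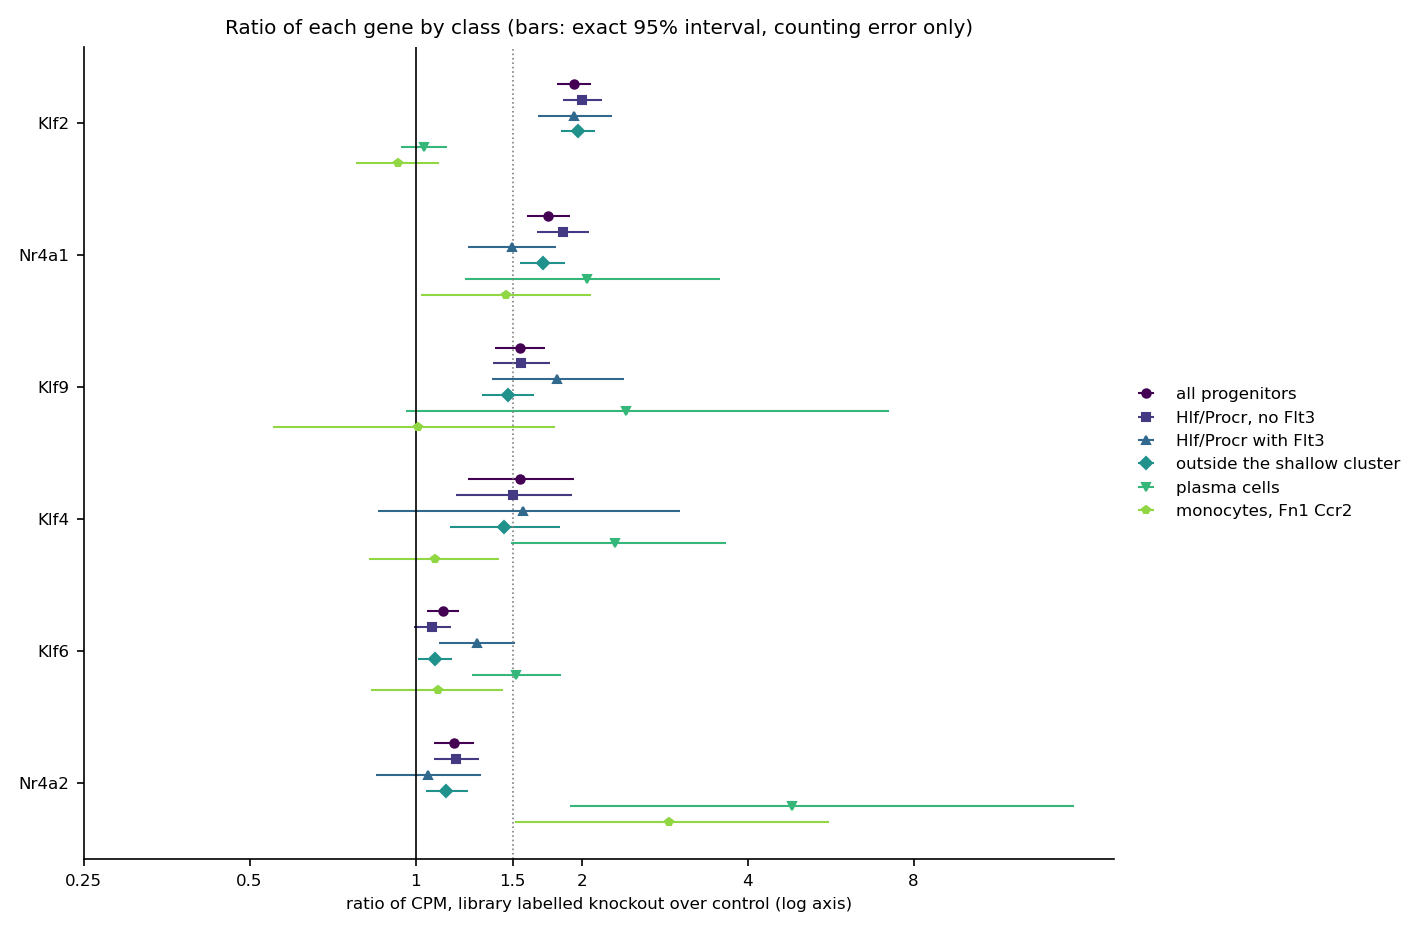
Ratio of each gene's CPM in the library labelled knockout over the control (log axis) in 6 sets of cells, with exact 95% intervals for counting error; the dotted line is the 1.5-fold call and Nr4a3 is left out for its few UMIs. Klf2 sits between 1.94 and 2.005 in the 4 progenitor sets plotted and near 1 in plasma cells (1.03) and in monocytes of cluster 10 (0.929), while Nr4a2 sits at 1.18 in progenitors and at 4.82 in plasma cells.

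Hlf and Procr mark stem cells, and Flt3 marks progenitors that lose self-renewal and turn to lymphoid and myeloid fates, so the progenitors were divided by UMIs of these 3 genes. Cells with Hlf or Procr and no Flt3 numbered 460 in the control and 1077 in the library labelled knockout. There 5 of 7 genes were called higher and 0 lower, against 5.86% and 3.22% of all genes measured. Klf2 was at 245 and 492 CPM (ratio 2.005, 1.85 to 2.17) and Nr4a1 at 138 and 255 CPM (1.85, 1.66 to 2.07). Klf9 was at 122 and 189 CPM (1.55, 1.38 to 1.75), and Klf4 at 30.1 and 45.2 CPM (1.503, 1.18 to 1.92). As in all progenitors, Klf2 and Nr4a1 had the highest ratios. Cells with Hlf or Procr and Flt3 numbered 142 and 311, and 3 of the 6 genes with enough UMIs were higher and 0 lower, against 7.88% and 6.51% of all genes. Klf2 was at 175 and 339.6 CPM (1.94, 1.67 to 2.27), Klf9 at 58.0 and 105 CPM (1.80, 1.38 to 2.39) and Klf4 at 12.4 and 19.4 CPM (1.56, 0.855 to 3.02). Nr4a1, at 133.5 and 199.6 CPM, had a ratio of 1.495 (1.25 to 1.80), just under the line. The Klf2 ratios with and without Flt3 depended on how the cells were divided: with the classes set on cells thinned to 2000 UMIs, they were 4.29 (3.04 to 6.24) with Flt3 and 1.68 (1.53 to 1.85) without. Cells with none of the 3 numbered 32 and 155, were shallower in the library labelled knockout (median 3619 UMIs against 6532), and had 2 of 6 genes higher and 0 lower, against 14.1% and 12.6% of all genes. In them Klf2 was at 312 and 389 CPM (1.25, 0.949 to 1.66). Flt3 without Hlf or Procr was seen in 4 control cells and 28 labelled knockout, where 3 members with enough UMIs were higher, against 19.8% of genes higher and 24.4% lower; 4 cells are too few for a comparison.

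Levels within a library also differed between the classes. Klf4 was at 30.1 CPM in control cells with Hlf or Procr and no Flt3 and at 12.2 CPM in the 146 control cells with a Flt3 UMI (ratio 2.48, 1.43 to 4.60). In the library labelled knockout the same levels were 45.2 and 19.1 CPM (2.37, 1.73 to 3.30; 339 cells with Flt3). Klf9 (122 against 56.7 CPM, ratio 2.14, in the control and 189 against 103 CPM, ratio 1.84, in the library labelled knockout) had the same order. Nr4a2 was at 206 against 103 CPM (1.999, 1.65 to 2.44) and at 244 against 109 CPM (2.23, 1.96 to 2.55). Klf6 was at 314 against 178 CPM (1.76) and 336 against 232 CPM (1.45), and Klf2 at 245 against 173 CPM (1.41) and 492 against 337 CPM (1.46). Nr4a1 differed least, at 138 against 130.4 CPM (1.06, 0.880 to 1.28) and 255 against 198 CPM (1.29, 1.16 to 1.43). By CPM, all 6 abundant members were therefore lower in Flt3 cells of both libraries, with the interval reaching 1 for control Nr4a1 alone. In cells thinned to equal depth, control Nr4a1 had the opposite order. Its mean per cell was 0.262 UMIs with Hlf or Procr and no Flt3, and 0.373 with Flt3 as well. The shares of cells with a UMI were 20.3% and 26.8%, with intervals that overlapped. The control shares for Klf2 were 24.9% and 26.1%, although its mean was lower with Flt3. The other abundant members had lower means with Flt3 in both libraries, as did Nr4a1 in the library labelled knockout. For Nr4a2 the ratio between labels was 1.18, well under both ratios between cell sets.

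**Figure D2:**
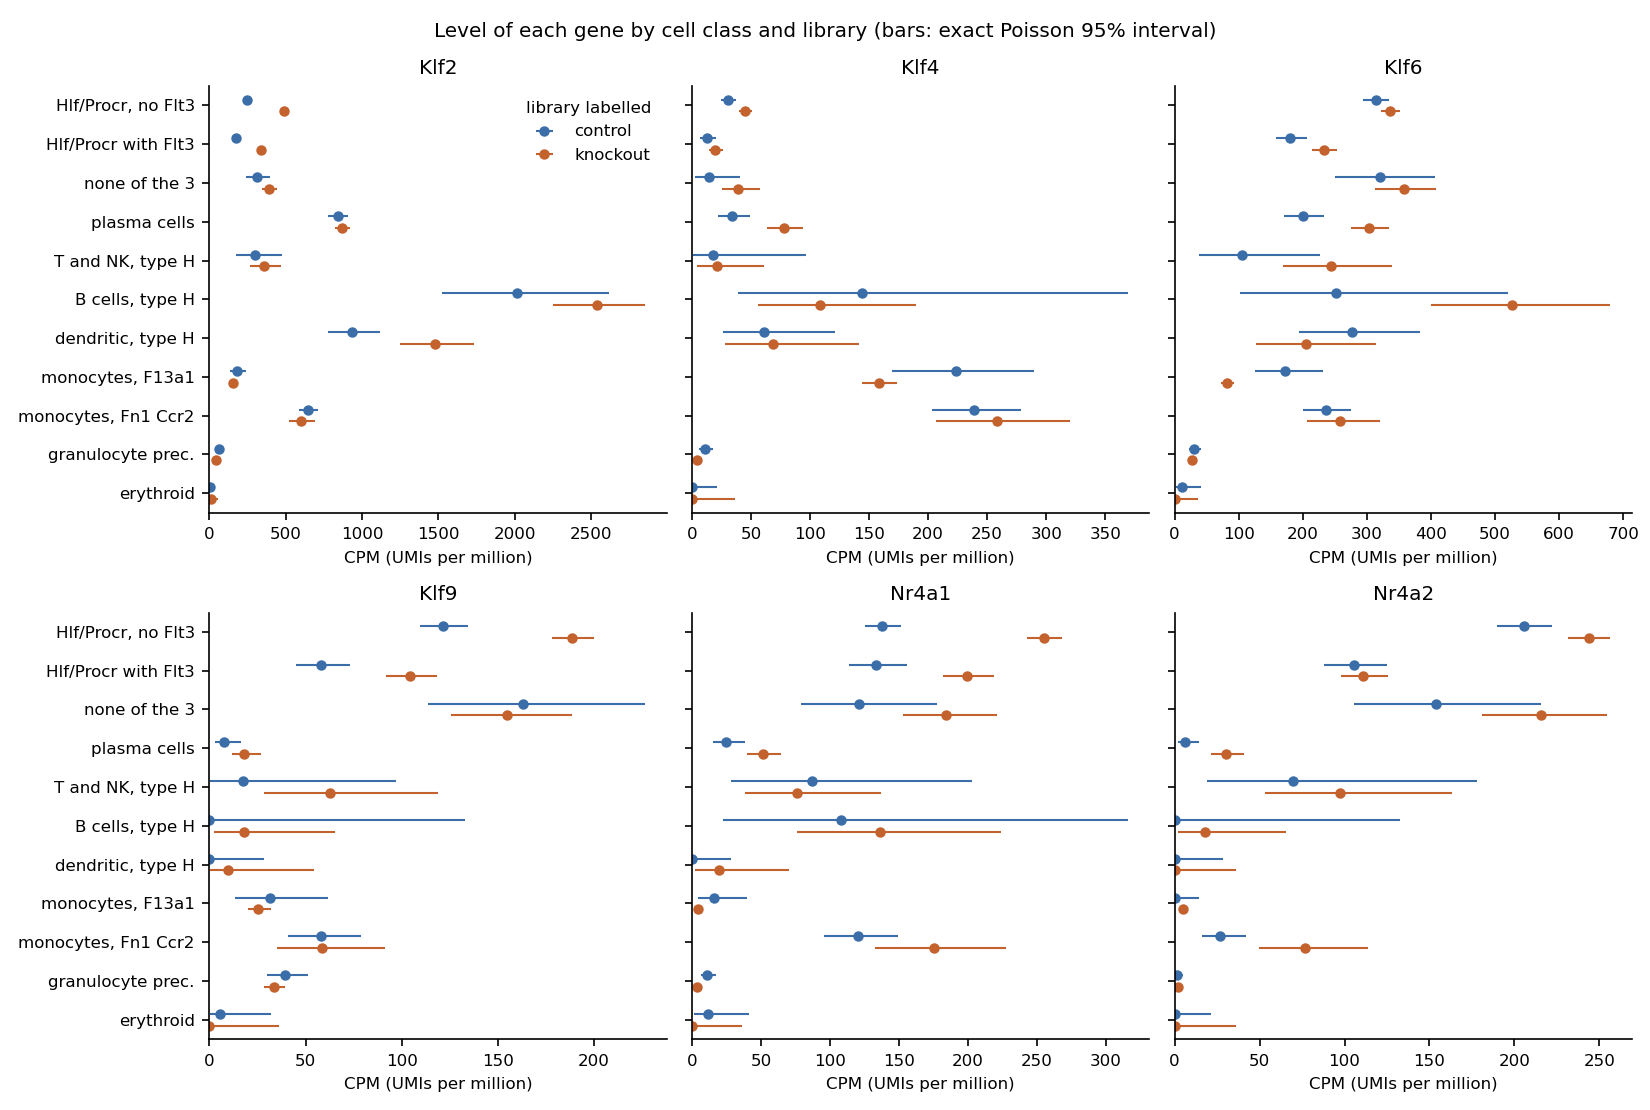
CPM of 6 of the genes in 11 cell classes, with a point for each library and exact Poisson 95% intervals. Klf4 lies higher in monocytes of cluster 10 (239 and 259 CPM) than in progenitors with Hlf or Procr and no Flt3 (30.1 and 45.2 CPM), and Klf2 lies at 841 and 869 CPM in plasma cells.

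Because the 7 genes could themselves have shaped the clusters, the cells were also clustered with those genes left out, and 6 groups of progenitors with at least 20 cells per library resulted. A group led by Cldn5, Sult1a1 and Trim47 (57 and 209 cells) held the most Klf2, at 634 and 1219.9 CPM (ratio 1.92, 1.68 to 2.21). A group led by Nkx2-3 and Myl10 (111 and 242 cells) held the most Nr4a1 in the library labelled knockout, at 439.7 against 226 CPM (1.95, 1.65 to 2.31), with Klf2 at 292 and 524 CPM (1.79). Its control level of Nr4a1 lay beside the 229 CPM of the Cldn5 group. A group led by Slc39a1, Notch2 and Nfia (65 and 417 cells) had the largest Nr4a1 and Klf9 ratios, 2.52 (1.76 to 3.71) and 2.28 (1.57 to 3.41). It was also the shallowest, with medians of 5086 and 2947 UMIs, and made up 10.2% of control progenitors and 26.5% of those labelled knockout. A group led by Sox4, Cd34 and Myl10 (200 and 348 cells) had the lowest control level of Klf2, at 141 and 227 CPM (1.61, 1.36 to 1.91). A group led by Iigp1, an interferon-induced GTPase, and by Pdzk1ip1 (162 and 239 cells) did not share the difference: Klf2 was at 180.4 and 173 CPM (0.957, 0.784 to 1.17) and Nr4a1 at 97.8 and 102 CPM (1.04). In that group Klf6 was lower in the library labelled knockout (290.2 and 226 CPM, 0.778), as was Klf4 (26.2 and 12.4 CPM, 0.474, 0.242 to 0.908). A cycling group led by Pf4 and Ppbp (43 and 116 cells) had Klf2 at 173 and 218 CPM (1.26, 1.004 to 1.58). The Klf2 ratio therefore ran from 0.957 to 1.92 over the 6 groups. The groups also took different shares of the 2 libraries. With each group weighted as in the control, Klf2 and Nr4a1 kept ratios of 1.59 and 1.57. Klf9 came to 1.41, Klf4 to 1.23, Klf6 to 1.02 and Nr4a2 to 1.01. By the call 2 of the 7 genes were then higher. The share over all genes was not computed with this weighting, so that count describes the members alone.

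**Figure D3:**
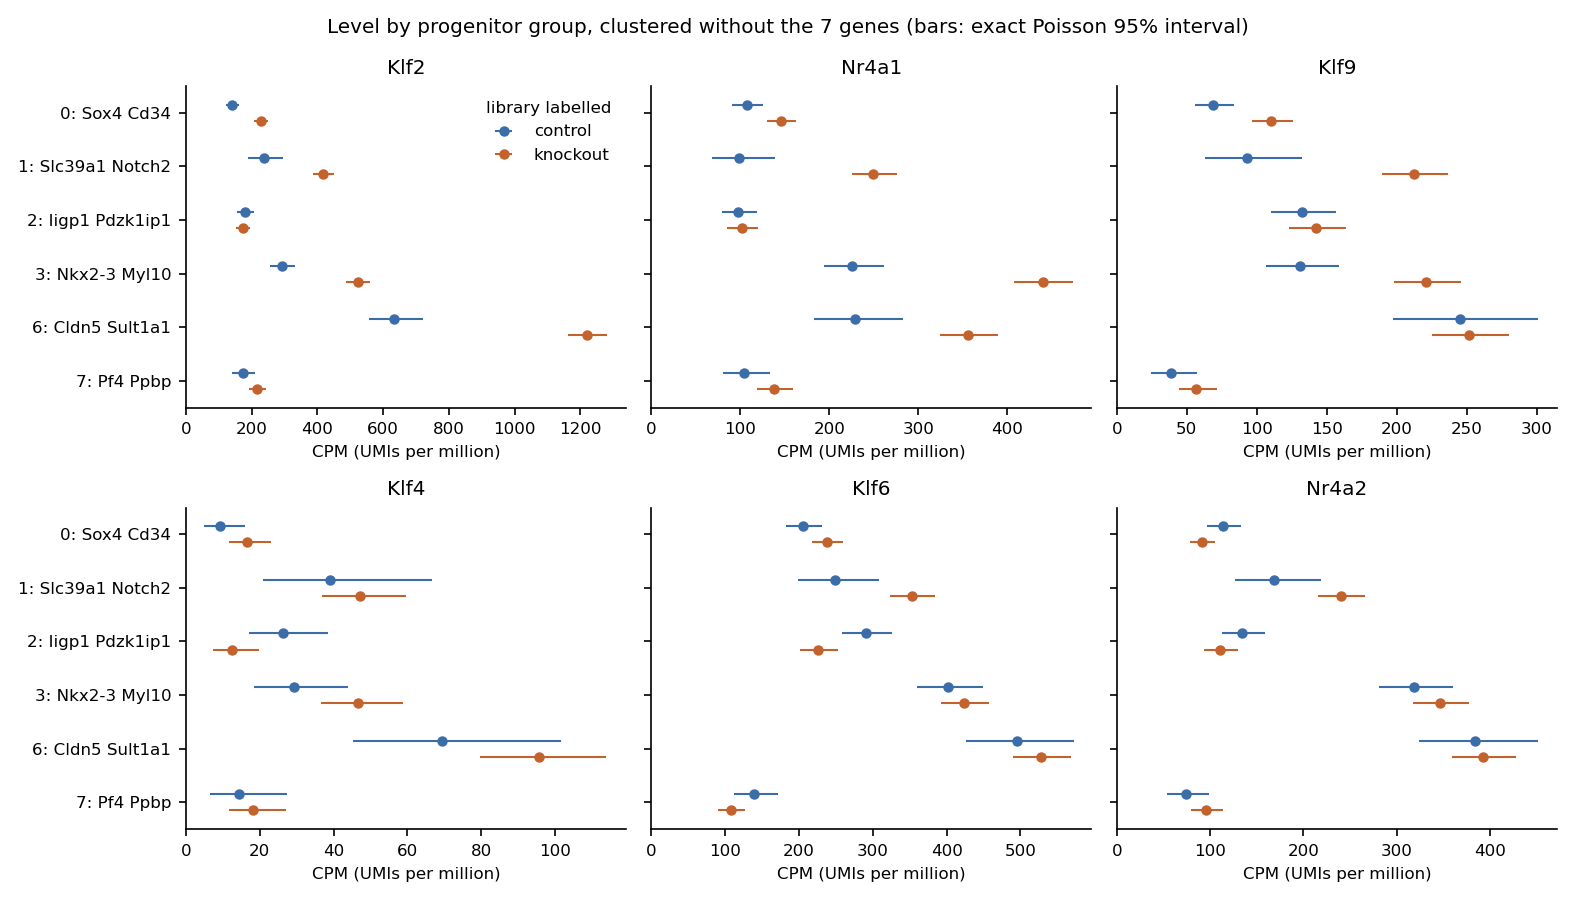
CPM of 6 genes in 6 groups of progenitors, clustered without the 7 genes and named by their leading genes, with a point per library and exact Poisson 95% intervals. Klf2 separates the libraries most in the Cldn5 group (634 and 1219.9 CPM) and not in the Iigp1 group (180.4 and 173 CPM).

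In the clustering with all genes, the shallowest cluster of progenitors (56 and 376 cells) held 6 of 6 measured members higher and 0 lower, against 15.8% and 13% of all genes. Without it, 2 of 7 genes were called higher, and 0 lower, against 5.34% and 3.01%. Klf2 was then at 232 and 457 CPM (1.97, 1.83 to 2.12) and Nr4a1 at 137 and 233 CPM (1.70, 1.55 to 1.87). Klf9 (1.47), Klf4 (1.45) and Nr4a3 (1.41) came under the line. Among cells of like depth, Klf2 had ratios of 1.55 (1.30 to 1.84) from 2500 to under 5000 UMIs per cell, 2.08 (1.92 to 2.26) from 5000 to under 10000 and 1.47 (1.21 to 1.80) at 10000 or more. Nr4a1 gave 1.75, 1.80 and 1.35 in the same bands, and Klf9 1.54, 1.41 and 1.60. All 9 of these values lay above 1. Klf6 gave 1.498, 1.002 and 0.901 and Nr4a2 1.63, 1.13 and 1.09, so their excess was largest in the shallowest of the 3 bands. Under 2500 UMIs there were 12 control cells, too few for a comparison.

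Xist marks female cells and Y-linked genes mark male cells, and both kinds were present in each type H library. Id3 was at 2.32 CPM (2 UMIs) in control progenitors with Xist and at 38.7 CPM in those with Y-linked UMIs, against 87.3 and 90.4 CPM in the library labelled knockout, so the control was not uniform for a targeted gene. The members' values are given for both kinds of cell. Among progenitors with Xist UMIs alone (123 and 104 cells), Klf2 was at 226 and 491 CPM (2.17, 1.81 to 2.61). Among those with Y-linked UMIs alone (350 and 848 cells), it was at 224 and 467 CPM (2.08, 1.90 to 2.28). For Klf2 the levels with Xist and with Y-linked UMIs thus lay close together within each library. The 2 kinds of cell share a library, so they are no replicates of a label. Nr4a1 was at 156 and 239 CPM with Xist (1.53) and at 142 and 257 CPM with Y-linked UMIs (1.81). Klf9 had ratios of 1.63 and 1.51, and Klf4 of 1.77 and 1.78. Nr4a2 went opposite ways: it was lower in the library labelled knockout with Xist (216 and 165 CPM, 0.765, 0.597 to 0.977) and higher with Y-linked UMIs (177 and 219.6 CPM, 1.24, 1.11 to 1.39).

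**Figure D4:**
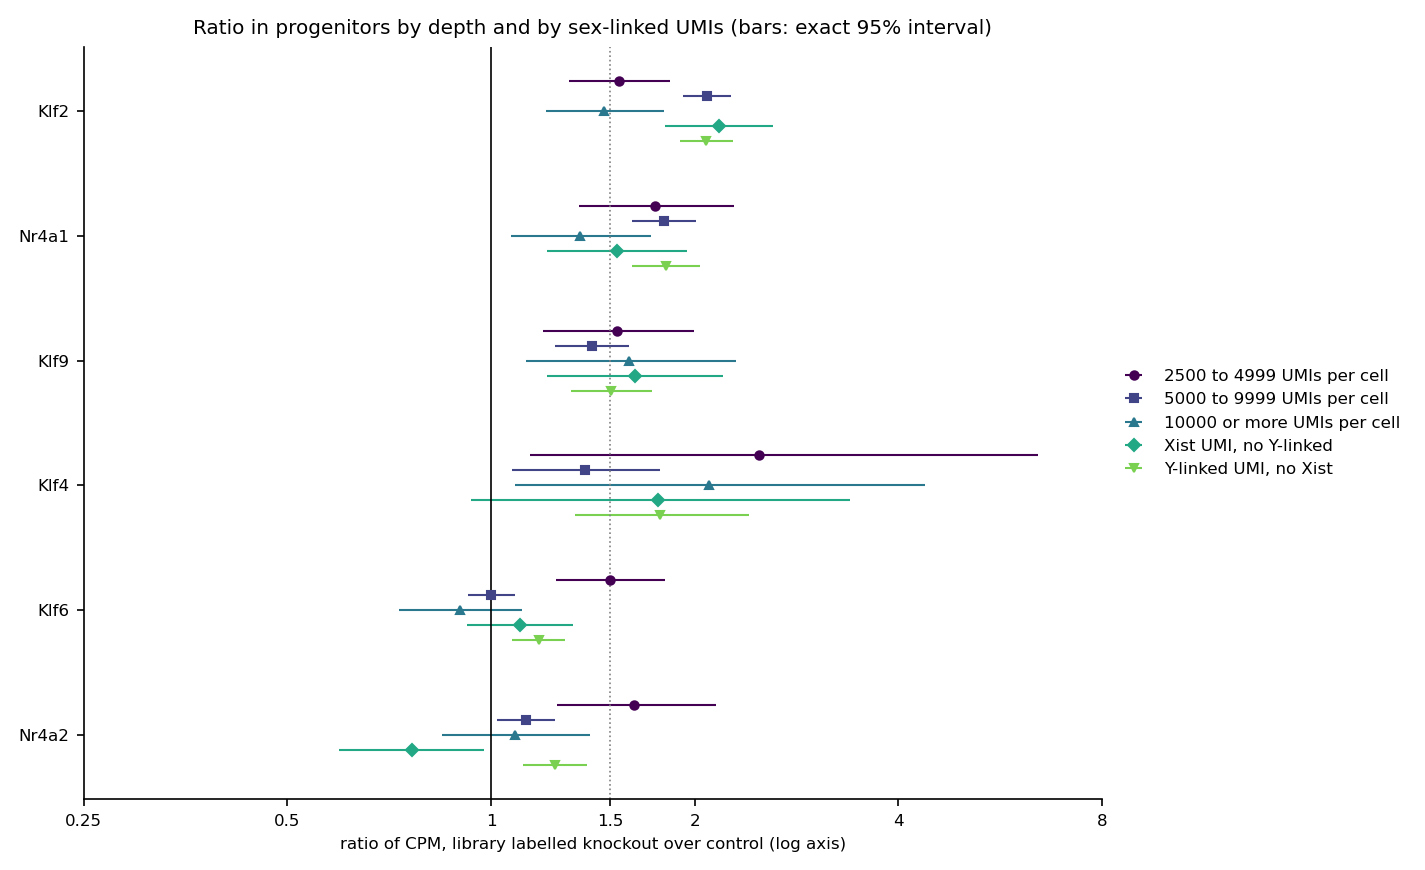
Ratio of each gene's CPM in progenitors, library labelled knockout over control (log axis), in 3 bands of UMIs per cell and in cells with Xist or Y-linked UMIs, with exact 95% intervals for counting error. Klf2, Nr4a1, Klf9 and Klf4 lie above 1 in all 5 sets, and Nr4a2 lies on both sides of 1 (0.765 with Xist, 1.24 with Y-linked UMIs).

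To compare single cells at equal depth, each was thinned to 2000 UMIs, which left 630 control progenitors (8 left out) and 1499 labelled knockout (72 left out). A Klf2 UMI was then seen in 25.6% (22.2 to 29.2) and 32.5% (30.1 to 34.9) of them, and in 46.7% and 52.5% before thinning. In thinned granulocyte precursors of the sinusoidal gate, cells of another fate, the shares were 14.3% of 91 and 9.06% of 254, at medians of 15572 and 16420 UMIs per cell before thinning against 6440 and 5567 in progenitors. Klf2 differed between labels more in its high cells than in the share of cells with any. Cells with at least 3 Klf2 UMIs made up 5.40% and 10.3%, and those with at least 5 made up 1.90% and 4.94%. The mean among cells with a UMI was 1.98 and 2.82. The 10% of cells with the most Klf2 held 68.6% and 69.2% of its UMIs, so Klf2 was concentrated in a minority of cells in both libraries.

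Klf9 showed the reverse form. Its share of thinned cells was 17.1% (14.3 to 20.3) and 28.7% (26.4 to 31.0), a ratio of 1.67, while the mean among cells with a UMI was 1.25 and 1.31. For Nr4a1 the shares were 21.6% (18.4 to 25.01) and 29.8% (27.4 to 32.1) and the means 1.32 and 1.52. Nr4a2 was seen in 21.9% and 28.2% of thinned cells and Klf4 in 4.76% and 7.34%. Klf6 gave 37.0% and 37.6%, and Nr4a3 1.11% and 1.001%. In granulocyte precursors the shares of Klf9 were 6.59% and 6.30%, and those of Nr4a1 3.30% and 1.57%.

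Levels of several members differed between thinned cells with and without an Nr4a1 UMI. Thinned cells with an Nr4a1 UMI (136 control, 446 labelled knockout) held Klf2 at 401 and 737 CPM. Cells without one (494 and 1053) held it at 212 and 339.5 CPM. Nr4a2 was at 243 and 342 CPM with an Nr4a1 UMI and at 145 and 168 CPM without. Fos, the immediate-early partner of Jun, was at 1331 and 1697 CPM with and at 845 and 1072 CPM without. Klf9 was at 125 and 247 CPM with and at 102 and 164 CPM without, and in the control these 2 counting intervals (86.6 to 174.7 and 83.3 to 124) overlapped. The control intervals also overlapped for Klf4 (29.4 with and 25.3 CPM without), for Klf6 (382 and 280.4 CPM), for Jun (393 and 351 CPM) and for Jund (489 and 443 CPM). The contrast between labels was present on both sides of the split: cells without Nr4a1 held more Klf2 in the library labelled knockout than in the control. UMIs of 4 or more of the 7 genes were held by 4.76% of thinned control progenitors and 10.54% of those labelled knockout. These cells share their library and depth, and the values are descriptions.

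**Figure D5:**
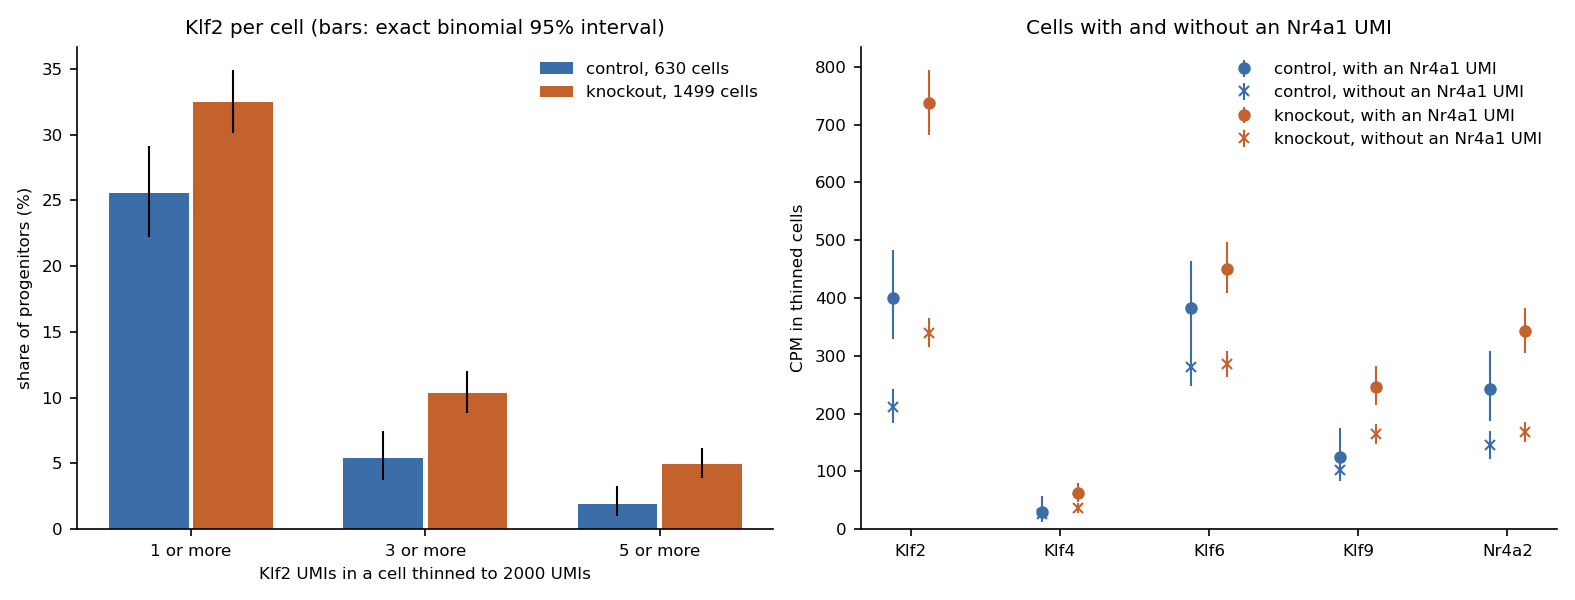
Left, share of progenitors thinned to 2000 UMIs with at least 1, 3 or 5 Klf2 UMIs in each library, with exact binomial 95% intervals; right, CPM of 5 genes in thinned cells with (dots) and without (crosses) an Nr4a1 UMI, with exact Poisson 95% intervals. The share with at least 5 Klf2 UMIs is 1.90% and 4.94%, and Klf2 in cells with an Nr4a1 UMI lies at 401 CPM (control) and 737 CPM (labelled knockout).

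Genes that act around the members were taken from lists made for the purpose, and the highest and lowest ratios named are those of genes with at least 100 UMIs. The share to set beside each list count in progenitors is that over all 11716 genes measured, 5.41% higher and 2.82% lower. Of 12 other Kruppel-like and Sp factors with enough UMIs, 0 were higher and 0 lower, with a median log2 ratio of 0.09. Klf13 had the highest ratio, 1.49 (1.31 to 1.69), at 69.2 and 103 CPM, followed by Sp4 at 1.28. Klf3 (0.981) and Klf10 (0.952) had the lowest. Of 21 partners and regulators of the Nr4a receptors and targets of CREB, 2 were higher and 0 lower (median 0.19). These were Sik1, a kinase induced by CREB, at 53.2 and 95.5 CPM (1.79, 1.55 to 2.08), and the clock gene Per1 at 33.0 and 51.4 CPM (1.56). Creb1 (0.946) and its coactivator Crtc3 (0.864) had the lowest ratios. Of 9 genes of the ERK5 and MEF2 route to Klf2 and Klf4, 0 were higher and 0 lower (median 0.02). Their highest ratios were those of Foxo3 (1.39) and Map3k3 (1.24), and the lowest those of Map2k5 (0.952) and Foxo1 (0.942).

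Of 9 genes known as Klf2 targets in other cells, 1 was higher and 0 lower (median -0.17). This was Spns2, a sphingosine-1-phosphate transporter, at 66.3 and 118 CPM (1.78, 1.57 to 2.03). Cdkn1a, an inhibitor of the cell cycle, had a ratio of 1.25. Il6ra, a receptor chain for interleukin 6, was at 14.9 and 11.8 CPM (0.793). S1pr1, which guides lymphocytes out of tissues, was at 25.7 and 22.3 CPM (0.865). The other 8 measured genes of that list were called neither way. Of 11 glucocorticoid response genes, 3 were higher and 0 lower (median 0.34). Tsc22d3, which encodes the glucocorticoid-induced protein GILZ, was at 421 and 641 CPM (1.52, 1.45 to 1.60) and Per1, also on this list, had a ratio of 1.56. The transcription factor Zbtb16, named after its values were seen, was at 3.33 and 6.33 CPM (1.90, 1.06 to 3.61), whereas Nr3c1, the receptor, was at 45.7 and 44.2 CPM (0.968) and Sesn1 had a ratio of 0.9399.

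Of 21 AP-1 and other immediate-early genes, 9 were higher and 0 lower (median 0.44), against 5.41% and 2.82% of all genes measured. Among those with at least 100 UMIs, Cebpb had the highest ratio, at 29.1 and 130.2 CPM (4.48, 3.74 to 5.41), followed by Atf3 at 5.99 and 16.6 CPM (2.77). Egr2, with 3 and 20 UMIs, had a ratio of 3.28 (0.973 to 17.2). Jund was at 443 and 928 CPM, Fos at 885 and 1200.2 CPM, Jun at 357 and 545 CPM and Egr1 at 109 and 181 CPM. Nfkbia (1.04) and Myc (0.964) had the lowest ratios. Of 8 heat shock genes 0 were higher and 0 lower (median -0.13), with Dnajb1 (1.11) and Hsph1 (1.004) highest and Hsp90aa1 (0.799) and Dnaja1 (0.764) lowest. Of 14 stem cell genes 0 were higher and 0 lower (median -0.11), with Gata2 (1.19) highest and Mycn (0.759) and Tek (0.719) lowest. Markers of other cell types differed in these progenitors too. Of 9 granulocyte precursor markers 6 were higher and 0 lower (median 0.56), with a sum of 1055 and 1087 CPM. Of 7 erythroid markers 3 were higher and 1 lower (median 0.41), with a sum of 1807 and 1538 CPM, and of 4 basophil and mast cell markers 0 were higher and 2 lower (median -0.68), with a sum of 2510.3 and 2175 CPM. Of the markers listed, 0 granulocyte precursor, 2 erythroid and 2 basophil and mast cell markers had no UMI in either library. Higher and lower markers numbered 2 and 0 of 4 for T and NK cells, 2 and 0 of 5 for B cells and 1 and 0 of 5 for monocytes. They were 2 and 1 of 9 for plasma cells, 1 and 0 of 7 for dendritic cells and 2 and 1 of 11 for megakaryocytes. Endothelial markers gave 1 and 2 of 9, and stromal markers 0 and 0 of 2. The mitochondrial share of UMIs was 3.49% and 3.54%, the ribosomal protein share 34.004% and 35.6% and the share of Malat1, a nuclear RNA, 1.20% and 1.38%. The part of these in the members' ratios was not tested.

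Plasma cells of the type H gate (109 and 167 cells) held the members at other levels. Nr4a2 and Klf9 were at 206 and 122 CPM in control progenitors with Hlf or Procr and no Flt3, against 6.25 and 7.50 CPM in control plasma cells, ratios of 32.9 (14.03 to 102) and 16.2 (7.38 to 44.5). Klf2 was lower in these progenitors than in plasma cells, with ratios of 0.292 in the control and 0.565 in the library labelled knockout. Between labels, Klf2 in plasma cells was at 841 and 869 CPM (1.03, 0.939 to 1.14). Nr4a1 was at 24.99 and 51.2 CPM (2.05, 1.23 to 3.56) and Nr4a2 at 6.25 and 30.1 CPM (4.82, 1.90 to 15.6). Klf4 was at 33.7 and 77.5 CPM (2.30, 1.49 to 3.65), Klf6 at 199.9 and 304 CPM (1.52, 1.26 to 1.84) and Klf9 at 7.50 and 18.1 CPM (2.41, 0.959 to 7.21). By the call 5 of 6 genes were higher and 0 lower, where 19.1% of the 6803 genes measured were higher and 5.45% lower. Klf2, the gene with the highest ratio in progenitors, was the 1 measured member that was not called. In the same cells 9 of 13 progenitor markers and 5 of 6 monocyte markers were higher too, and Jchain, the joining chain of secreted antibody, was at 191759 and 123088 CPM. The summed progenitor markers were at 3661 and 3457 CPM and the summed monocyte markers at 3208 and 4829.9 CPM. The part of these in the plasma cell ratios was not tested. Jchain was also counted in progenitors, at 458 and 464 CPM, and its source there was not tested. If all of it were free plasma cell RNA, the plasma cells' own ratio of Klf2 to Jchain would give 2.01 and 3.28 CPM of Klf2. Free RNA of other cells was not estimated.

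Monocytes of the sinusoidal gate (174 and 219 cells) formed 3 clusters that the libraries shared unequally. Cluster 9, led by F13a1, held 19 and 160 cells. Cluster 10, led by Fn1, Lyz2 and Ccr2 as in classical monocytes, held 114 and 54. Cluster 14, led by Ear2 and Fcgr4 as in nonclassical monocytes, held 41 and 5. Summed over the 3, all 6 measured members were called lower in the library labelled knockout and 0 higher, against 22.5% and 24.3% of all genes. Nr4a1 was at 140.2 and 24.3 CPM (0.174) and Klf2 at 618 and 205 CPM (0.332). Within cluster 10, 1 of 6 members was called higher and 0 lower, against 8.65% and 14.1% of all genes. Klf2 was at 647 and 600.4 CPM (0.929, 0.780 to 1.10), Klf4 at 239 and 259 CPM (1.08), Klf6 at 236 and 259 CPM (1.10) and Klf9 at 57.8 and 58.5 CPM (1.01). Nr4a1 was at 120.1 and 175.5 CPM (1.46, 1.02 to 2.08) and Nr4a2 at 26.7 and 77.0 CPM (2.88, 1.51 to 5.61). The lower sums were thus not seen within the classical cluster, where the Klf2 interval held 1. In cluster 9, 0 of 4 measured members lay above 1, 1 (Klf6) was lower and 0 higher, against 19.5% and 19.4% of all genes. In cluster 14, 0 of 4 lay above 1, 2 (Klf2 and Klf4) were lower and 0 higher, against 31.7% and 18.3%. Both rested on few cells in 1 library (19 control cells and 5 labelled knockout). In the control library the clusters differed widely: Klf2 was at 180.2, 647 and 1504 CPM in clusters 9, 10 and 14, and Nr4a1 at 15.7, 120.1 and 575 CPM. Klf4 was at 223, 239 and 623 CPM, so all 3 genes were highest in the nonclassical cluster.

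T and NK cells were few. In the type H gate (10 and 42 cells) 2 members had enough UMIs, of which 1 was called higher and 0 lower, against 22% and 16.4% of all genes. Klf2 was at 296 and 355 CPM (1.20, 0.681 to 2.21) and Klf6 at 104 and 243 CPM (2.33, 0.970 to 6.78). Both intervals held 1. In the sinusoidal gate (18 and 3 cells) Klf2 alone had enough UMIs and was called neither way, against 16.9% of genes higher and 24.5% lower.

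Elsewhere Klf2 was highest in type H gate B cells (10 and 30 cells), at 2018 and 2538 CPM (1.26, 0.941 to 1.71), and in dendritic cells (25 and 25 cells), at 936 and 1477 CPM (1.58, 1.23 to 2.02). In granulocyte precursors it was at 59.96 and 41.2 CPM. The control levels ran from B cells (1524 to 2620.1 CPM) and nonclassical monocytes (1278 to 1759) to dendritic cells (777 to 1118), plasma cells (778.5 to 907), classical monocytes (587 to 710.2) and sinusoidal T and NK cells (437 to 820.4), where the intervals of neighbours in that order overlapped except at 2 steps. These were the step from nonclassical monocytes to dendritic cells and that from plasma cells to classical monocytes. Type H T and NK cells (172 to 474) and progenitors (214.9 to 243) came next, with intervals that overlapped, and granulocyte precursors (48.1 to 73.9) lay below both. Nr4a2 was at 1.36 and 2.09 CPM in granulocyte precursors.

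Profiles were compared over 11 sums of at least 50 cells by class and library, among 2397 genes that reached 100 CPM in any, by Pearson's r of log2(CPM + 10). The points share 4 libraries and differ in depth, so r is a description. Klf2 was most like Fos (0.975), Btg2 (0.967) and Zfp36 (0.960), and Klf6 most like Ier2 (0.972), Rchy1 and Vmp1. Nr4a1 was most like Clk1 (0.971), Mrpl52 and Zfand5, and Nr4a2 most like Ubl7 (0.987) and Cmas (0.986). Nr4a3 was most like Use1 (0.935), Mllt3 and Clec1a, Klf4 most like Irf5 (0.943), Tpd52 and Ubl3, and Klf9 most like R3hdm4 (0.952), Rpl11 and Rlim. Among the members, Nr4a1 and Nr4a2 had r of 0.900, and Klf2 and Klf6 of 0.854, while Klf2 and Klf9 had -0.03. Klf2 and Klf9, both higher in progenitors labelled knockout, thus had unlike profiles across cell types.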

How the data were processed

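The data were single-cell RNA counts from 10x Genomics Chromium libraries, 1 for each of 4 groups, sequenced on a NextSeq 500 with 26 and 57 cycles, per the labels' protocols. The deposited matrices hold UMI counts per gene and barcode, as whole numbers, per the file headers and the values. Named in the submitters' processing notes are Cell Ranger and Seurat, with the build mm10 and no tool versions. The 7 genes, the lists and the rules were chosen with earlier results of these data known.

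Kept were cells in which 200 or more genes were seen and fewer than 10% of UMIs were mitochondrial. Clustering used scanpy 1.11.5 (2000 variable genes, 30 components, 15 neighbours, Leiden resolution 1) under Python 3.11.15. Of 20 clusters 19 were named from fixed marker lists, and the cluster led by Pf4 stayed unnamed. Scrublet marked 15 cells as doublets, and 1.51% to 2.56% of cells per library held UMIs of Xist and of Y-linked genes together; both kinds were kept, and dropped in an alternative. Counts were summed over cells, given as CPM with exact Poisson 95% intervals, and compared as ratios with exact conditional 95% intervals; log2 ratios had 0.5 UMIs added. Shares have Clopper-Pearson intervals. All cover counting error only, and no test between labels was possible. Named were the 7 genes and, of each list, the 2 highest and 2 lowest ratios with at least 100 UMIs; S1pr1 and the genes given by level were added after their values were seen. A few genes that this rule names are not reported here. Ratios were tested on simulated counts. Alternatives were the cell filter, scaling, weighting, depth, doublets, clustering, class rules and sex-linked UMIs. No cell was imputed.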

Additional observations from a re-analysis of the deposited data

Results flagged for a closer look

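Nr4a2 in progenitors was lower in the library labelled knockout among cells with Xist UMIs (ratio 0.765) and higher among cells with Y-linked UMIs (1.24), each with a counting interval clear of 1. These intervals leave out the spread between cells. In thinned progenitors the variance of Nr4a2 UMIs over their mean was 1.65 and 1.57, above the 1 that counting error gives, so the intervals are too narrow. In the control library it was higher with Xist than with Y-linked UMIs (216 and 177 CPM), and in the library labelled knockout lower (165 and 219.6 CPM). Over the groups clustered without the 7 genes, Nr4a2 was lower in the Sox4 and Cd34 group (0.798) and higher in the shallow Slc39a1 and Notch2 group (1.43). Klf6 was lower in the Iigp1 group (0.778) and higher in the Sox4 and Cd34 group (1.16) and in the Slc39a1 and Notch2 group (1.42). These opposite directions drew attention in 2 members that differed little when all progenitors were summed. None of these differences between sets of cells was tested, since each label has 1 library, and the sources used here do not give the number of mice of each sex.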

How the results depend on the processing

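No paired analysis was possible because each label has 1 library in a gate. Over 14 alternatives in progenitors, Klf2 ran from 1.54 (all cells of the type H gate) to 2.17 (Xist only) and Nr4a1 from 1.53 (Xist only) to 1.81 (Y-linked only), both past 1.5-fold in 14 of 14. All of these re-cut the same libraries from which the genes were chosen, so the tally shows nothing beyond that choice. Outside that tally, neither gene was called in cells with 10000 or more UMIs, in the Iigp1 group or in the cycling Pf4 group. The count of members called higher in progenitors was 3 with at least 4000 UMIs per cell. It was 2 without the shallow cluster (against 5.34% of all genes) and 2 with groups weighted as in the control. For most alternatives the share over all genes was not computed, so these counts and those below describe the members alone. The count was 3 in Hlf or Procr cells when the classes were set at 2 UMIs, on thinned cells or with Xist only. In the cells with Flt3 alone it was 1 on thinned cells. In cells with none of the 3 it was 1 with no cell filter, with the stricter filter and with at least 4000 UMIs (1 member then lower), and 5 on thinned cells and with all gate cells. Nr4a3 turned to 0.815 in progenitors and 0.921 in Hlf or Procr cells with Y-linked UMIs only.

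In plasma cells 1 member was higher with Xist only and 3 with Y-linked UMIs only. In type H T and NK cells 0 were higher with classes by UMIs and with Y-linked UMIs only; in sinusoidal ones 1 was higher with at least 4000 UMIs, and 2 (stricter filter) or 1 (classes by UMIs) were lower. In monocytes 1 was higher in cluster 10 alone and when clustered without the 7 genes, which left the F13a1 cluster unnamed and out. There 3 were lower at Leiden resolution 2, 1 with classes by UMIs and 0 when clustered without the 7 genes. In single clusters, 1 was lower in cluster 9, 2 in cluster 14 and 0 in cluster 10, against 19.5%, 31.7% and 14.1% of all genes. Monocyte ratios turned for Nr4a1 to 1.10 (classes by UMIs), 1.04 (clustered without the 7 genes) and 1.46 (cluster 10). Nr4a2 turned to 1.01 (mean of single-cell CPM), 1.16 (resolution 2), 2.86 (clustered without) and 2.88 (cluster 10), and Klf4 to 1.03 (resolution 2) and 1.08 (cluster 10). Klf6 turned to 1.01 (clustered without) and 1.10 (cluster 10), and Klf9 to 1.28 (Xist only) and 1.01 (cluster 10). The causes were not tested. Leaving out highly abundant gene classes from the totals shifted all log2 ratios by 0.04 in progenitors, -0.12 in plasma cells and 0.14 in monocytes. The alternatives with clusters left out, clusters alone, weighted groups and the 7 genes left out were chosen after seeing the data. Depth limits Nr4a3 throughout and every member in T and NK cells.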
